A study of Caenorhabditis elegans with 6 samples.

Results

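miR-86-5p and miR-785-3p are a pair of *Caenorhabditis elegans* microRNAs (miRNAs) that carry the same seed, the short stretch near the 5′ end that pairs with target mRNAs. They were taken from the 437 mature miRNA names in the count files by name, so the members are 2 of 437 and both are among the 208 miRNAs with enough counts to be tested. The libraries came from whole worms of the wild-type N2 strain, exposed from the L4 larval stage to CdCl2 at 60 µmol/L in nematode growth medium with OP50 bacteria at 20 °C, or left untreated as controls, with 3 libraries in each group. The labels give no exposure time and do not say whether the libraries came from separate cultures, so p-values measure the spread between these samples, which may be technical.

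An animal miRNA is cut from a hairpin precursor, and the arm that stays in the Argonaute protein (ALG-1 or ALG-2 for most worm miRNAs) guides it to partly matching sites, mostly in the 3′ untranslated regions of mRNAs. miRNAs with the same seed can recognise overlapping sets of sites even when the rest of their sequences differ. For such miRNAs the summed level describes how much guide carries the seed, and the ratio describes which hairpin supplied it. The shared seed of miR-86-5p and miR-785-3p is stated from knowledge of these miRNAs and was not checked against sequences here.

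The hairpins lie on different chromosomes. In the Ensembl annotation of the WBcel235 genome, the build also named in the submitters' processing notes, mir-86 is a 98-base hairpin on the minus strand of chromosome III from 11936637 to 11936734. It lies within the protein-coding gene Y56A3A.7, on the same strand, where neither annotated transcript that spans it has an exon over it, so the position is intronic. The mature 5p arm, 23 bases long, is placed at 11936697 to 11936719. The mir-785 hairpin has 94 bases on the plus strand of chromosome X, from 3004668 to 3004761, between protein-coding genes. Its mature 3p arm, 22 bases long, is placed at 3004726 to 3004747. The guide arms thus come from opposite sides of their hairpins.

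Both miRNAs were well counted, miR-86-5p with about 9 to 12 times the counts of miR-785-3p in group means. In control replicates 1 to 3, miR-86-5p was counted 6146, 9946 and 15131 times, and under cadmium 13966, 12414 and 10753 times, in the order of the replicate numbers. miR-785-3p had 619, 1190 and 1722 counts in the controls and 1326, 1186 and 711 under cadmium. Library totals differed, from 1640693 counts in control replicate 1 to 3917414 in control replicate 3, so levels were compared as CPM (counts scaled to a fixed library total) adjusted by the trimmed mean of M-values (TMM), which sets the libraries to a common scale. miR-86-5p took 0.375%, 0.410% and 0.386% of the control libraries and 0.416%, 0.328% and 0.417% of the cadmium libraries. By mean deposited CPM it was number 36 of the 437 names and miR-785-3p number 68. Their ranks within a library ran from 32 to 37 and from 64 to 74.

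**Figure D1:**
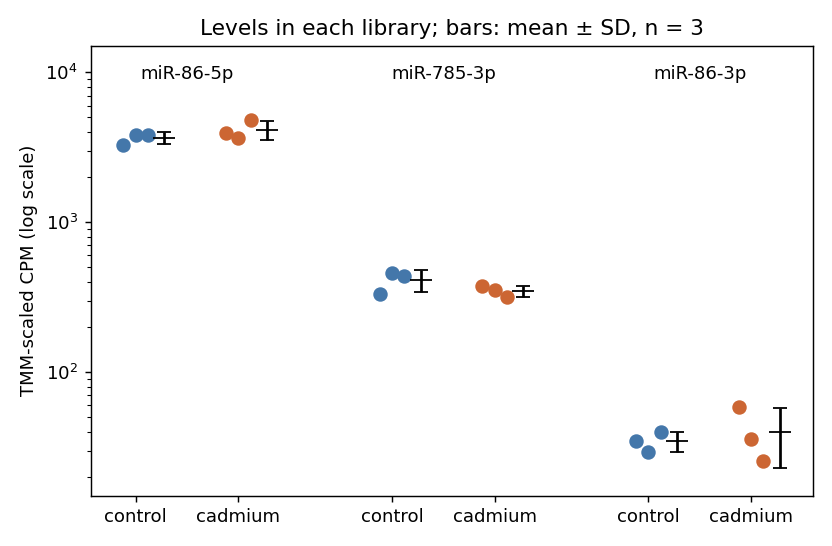
TMM-scaled CPM (log axis) of miR-86-5p, miR-785-3p and the opposite arm miR-86-3p in each library, with control libraries in blue, cadmium libraries in orange and the mean ± SD of 3 libraries in black. The groups overlap for all 3 miRNAs, and miR-86-5p lies between 3283 and 4802 CPM in all 6 libraries.

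Neither member passed the test for a change under cadmium. miR-86-5p stood at 3283, 3842 and 3839 TMM-scaled CPM in the controls and at 3961, 3669 and 4802 under cadmium. The cadmium library of replicate 2 lay below both of the higher controls, and that of replicate 3 was the highest of all. The group means were 3655 ± 322 CPM (SD, n = 3) and 4144 ± 589 CPM, so the log2 fold change was 0.18 (SE 0.18). By edgeR's quasi-likelihood test the adjusted p was 0.499. The 95% interval of the log2 fold change ran from −0.21 to 0.57, that is from 0.864-fold to 1.49-fold, so larger changes than these lie outside it. The sign depended on the scaling. With library totals in place of TMM the log2 fold change was −0.011. The log2 fold change was 0.063 without cadmium replicate 3 and 0.10 without control replicate 1.

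miR-785-3p stood at 331, 460 and 437 TMM-scaled CPM in the controls and at 376, 350 and 318 under cadmium. The lowest control fell among the cadmium libraries, and the other controls lay above all of these. The group means were 409 ± 68.9 CPM and 348 ± 29.4 CPM. The log2 fold change of −0.23 (SE 0.21, 95% interval −0.69 to 0.22) did not pass, at an adjusted p of 0.46 by edgeR. Leaving out control replicate 1 gave −0.37 and using library totals gave −0.41, neither past the threshold. Of all 208 tested miRNAs, 45 passed an adjusted p of 0.05, which is 21.6%, and the members account for 0 of them. An unadjusted p under 0.05 was reached by 35.1% of the tested miRNAs and by 0 of the members. The DESeq2 Wald test called 28.8% of the tested miRNAs and 0 of the members. The groups did not overlap for 38.5% of tested miRNAs, and they overlapped for both members. The summed level of the pair was 4064 ± 390 CPM in the controls and 4492 ± 567 CPM under cadmium. Its log2 change was 0.14, with an exact two-sided permutation p of 0.4, where 0.1 is the smallest p that 3 libraries against 3 can give. The sign of this change also depended on the scaling, with −0.053 in total-count CPM, and it was 0.044 without cadmium replicate 3 and 0.059 without control replicate 1.

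**Figure D2:**
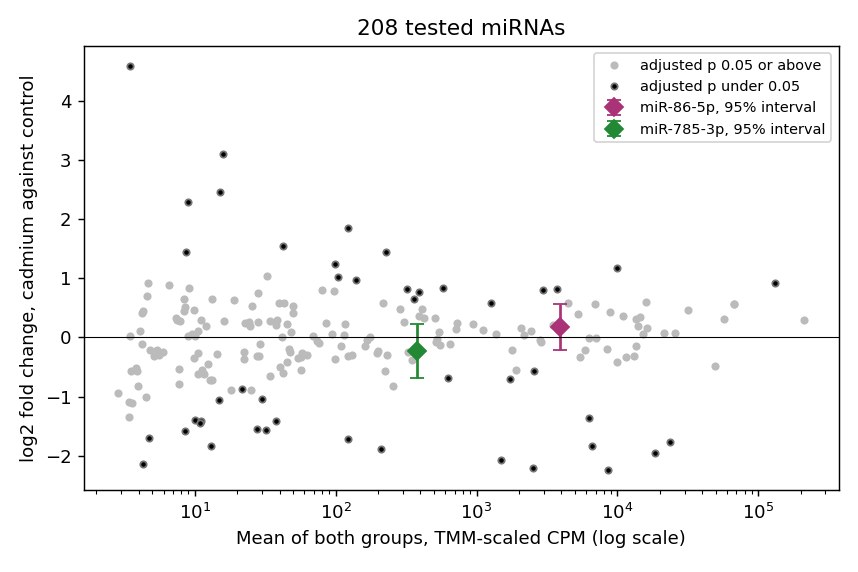
Log2 fold change under cadmium (vertical axis) against the mean TMM-scaled CPM (log axis) of the 208 tested miRNAs, in black where the adjusted p was under 0.05. The diamonds are miR-86-5p (0.18) and miR-785-3p (−0.23) with their 95% intervals, both of which cross 0.

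The fitted changes pointed in opposite directions with TMM scaling. With library totals both were negative, at −0.011 for miR-86-5p and −0.41 for miR-785-3p. The ratio, a planned comparison, was taken within libraries, where scaling plays no part. The ratio of miR-86-5p to miR-785-3p counts was 9.93, 8.36 and 8.79 in the controls, and 10.5, 10.5 and 15.1 under cadmium, the last being replicate 3. All 3 cadmium libraries lay above all 3 controls, but the gap between the highest control and the lowest cadmium library was small beside the distance from there to cadmium replicate 3. The mean log2 ratio was 3.17 ± 0.13 in the controls and 3.57 ± 0.30 under cadmium, a difference of 0.40. The exact two-sided permutation p was 0.1, the smallest this design allows, so this test could not reach 0.05. Without cadmium replicate 3 the difference was 0.22.

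A test that could reach the threshold did not pass it. limma was run over the log2 ratios of miR-86-5p to each of the other 207 tested miRNAs. For miR-785-3p it gave 0.40 (SE 0.24, 95% interval −0.13 to 0.92). The limma p was 0.124 before adjustment and 0.282 after adjustment over the 207 ratios. These ratios all share the counts of miR-86-5p, so they are not independent of each other. limma called 17.4% of the 207 ratios. With 1 library left out the adjusted p for miR-785-3p ran from 0.232 to 0.607. For 26.1% of the 207 miRNAs, the ratio of miR-86-5p to the miRNA was higher in all cadmium libraries than in all controls, so the separation seen for miR-785-3p was common in this table.

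The same relation can be read as a share. miR-785-3p supplied 9.15%, 10.7% and 10.2% of the pair's counts in the controls, and 8.67%, 8.72% and 6.20% under cadmium. The 95% Wilson interval, which covers counting error only, was 8.49% to 9.86% in control replicate 1 and 8.26% to 9.21% in cadmium replicate 2. These intervals overlapped, so the nearest libraries of the groups were not told apart at this depth. In cadmium replicate 3 the interval was 5.78% to 6.66%, below that of every other library. Mean shares were 10.0 ± 0.787% and 7.86 ± 1.44%, a difference of −2.15 percentage points, with an exact permutation p of 0.1. Without cadmium replicate 3 the difference was −1.32 percentage points. Counting error alone would give miR-785-3p a coefficient of variation between 2.41% and 4.02% per library, against an observed 16.8% among the control and 8.44% among the cadmium libraries in TMM-scaled CPM.

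**Figure D3:**
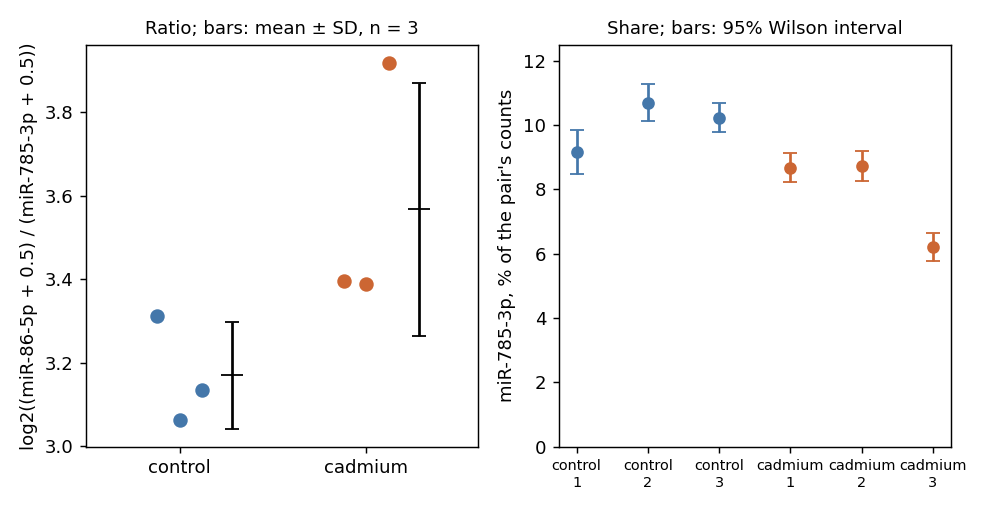
Left, the log2 ratio of miR-86-5p to miR-785-3p counts (0.5 added to each) in the 3 control (blue) and 3 cadmium (orange) libraries, with mean ± SD in black and an axis that does not start at 0; right, the share of the pair's counts from miR-785-3p with 95% Wilson intervals. Cadmium replicate 3 has the highest ratio and, at 6.20%, the lowest share.

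In TMM-scaled CPM both members varied less between libraries than most tested miRNAs. The highest library exceeded the lowest by 1.46-fold for miR-86-5p and 1.45-fold for miR-785-3p in TMM-scaled CPM. In deposited CPM these folds were 1.27 and 1.78, and the SDs below were not ranked on that scale. Over all 6 libraries the SD of the log2 level was 0.18 for miR-86-5p, number 14 of 208 counted from the lowest, and 0.22 for miR-785-3p, number 25. The median over the tested miRNAs was 0.40. This SD includes any difference between the groups. Within groups the SD was 0.17 for miR-86-5p, number 31 of 208, and 0.20 for miR-785-3p, number 42, against a median of 0.32. More abundant miRNAs have less counting error, so each was also set beside the 40 tested miRNAs nearest to it in rank. Of these 40, 5 had a lower SD than miR-86-5p and 7 a lower SD than miR-785-3p. These ranks are descriptions of 6 libraries and were not tested.

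**Figure D4:**
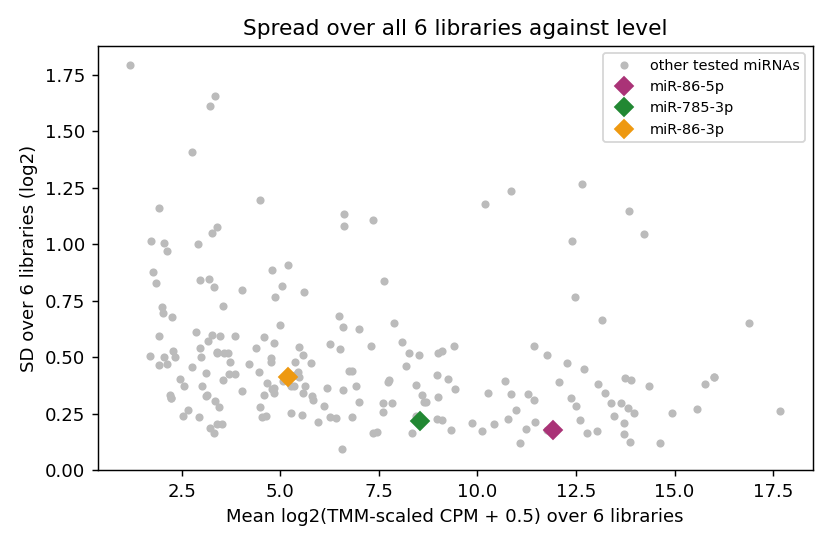
SD of the log2 level over all 6 libraries (vertical axis) against the mean log2 level of each tested miRNA. miR-86-5p (SD 0.18) and miR-785-3p (0.22) sit near the lower edge, while miR-86-3p (0.41) sits close to the median of 0.40.

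The opposite arms were scarce. miR-86-3p, the strand that is mostly discarded, had 65, 76 and 158 counts in the controls and 208, 121 and 57 under cadmium. It made up 1.05%, 0.758% and 1.03% of the hairpin's counts in the controls and 1.47%, 0.965% and 0.527% under cadmium, so the highest and lowest shares were both cadmium libraries. The mean log2 ratio of the 5p to the 3p arm was 6.72 ± 0.26 in the controls and 6.76 ± 0.74 under cadmium, and the exact permutation p was 0.8. The difference of 0.045 changed sign with the library left out, from −0.35 without cadmium replicate 3 to 0.39 without cadmium replicate 1. The log2 fold change of miR-86-3p was 0.21 (SE 0.32, adjusted p 0.653 by edgeR). It was −0.14 without cadmium replicate 1, 0.44 without cadmium replicate 3 and −0.059 by limma on the deposited CPM. miR-785-5p had 0 counts in all 6 libraries, which allows it at most 0.174% to 0.485% of the hairpin's counts per library, taking 3 counts as the limit. No arm ratio was tested for mir-785.

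Among the miRNAs encoded beside the members, miR-249-3p rose under cadmium. Hairpins within 5 kb were looked up after the files were seen. The mir-359 hairpin lies 268 bases upstream of mir-785 on the same strand, and mir-249 lies 1679 bases downstream on the opposite strand. miR-249-3p rose from 56.6, 64.9 and 54.0 TMM-scaled CPM in the controls to 140, 144 and 129 under cadmium, and the groups were far apart. Its log2 fold change was 1.24 (SE 0.22, adjusted p 0.00272 in edgeR's quasi-likelihood test), and it passed under all 16 alternative settings. miR-359 stood at 286, 257 and 433 CPM in the controls and 187, 253 and 112 under cadmium, with the groups close but not overlapping. Its log2 fold change was −0.82 (SE 0.31) with an adjusted p of 0.0827. It passed the threshold in 6 of 16 alternative settings, library totals and the fit without cadmium replicate 2 among them. The difference between these miRNAs and miR-785-3p was not tested. miR-8211-5p and miR-8211-3p, from a hairpin 182 bases from mir-86 on the same strand, had at most 3 counts in any library.

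Neighbours in abundance show what level the members had. By mean deposited CPM, miR-81-3p and miR-84-5p, of the bantam-related miR-58 and the let-7 families, stood just above miR-86-5p, and miR-237-5p, a relative of lin-4, and miR-87-3p just below. Their means were 5134, 4409, 3615 and 3506 CPM beside 3887 CPM for miR-86-5p. miR-87-3p at 3041 to 3797 CPM overlapped the 3283 to 4167 CPM of miR-86-5p, as did the other neighbours. Among these neighbours only miR-237-5p passed the threshold (log2 fold change 0.83, adjusted p 0.0206). This call was lost in 9 of 16 alternative settings, including those without control replicate 1, 2 or 3 and without cadmium replicate 2 or 3. Around miR-785-3p, at 382 CPM, stood miR-63-5p (404), miR-793 (391), miR-79-3p (379) and miR-252-5p (355). Of these only miR-79-3p passed (log2 fold change 0.76, adjusted p 0.0475), and it lost its call in 10 of 16 settings, including those without control replicate 1 or 3 and without cadmium replicate 2 or 3.

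The members were not each other's closest match in profile. Profiles were compared as the root-mean-square distance between log2 levels over the 6 libraries after each was centred on its own mean. Closest to miR-86-5p were miR-80-3p (0.11), miR-791-5p (0.13) and miR-790-5p (0.14). Closest to miR-785-3p were miR-60-3p (0.087), which is known from the intestine, miR-1829a-5p (0.10) and miR-259-5p (0.12). The distance between the members was 0.28, below the median of 0.41 from miR-86-5p to all others. Counted from the nearest, miR-785-3p was number 46 of 207 for miR-86-5p, and miR-86-5p was number 35 of 207 for miR-785-3p. With 6 libraries that share their scaling these distances are descriptions only.

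Set beside 16 other groups of worm miRNAs that share a seed, the pair was in the middle in how far its ratio moved. For each group the log2 ratio of the most abundant to the next most abundant listed and tested member was computed in the same way. miR-45-3p was not listed in the miR-44 group, though its counts equal those of miR-44-3p in all 6 libraries. The miR-44 group was read as miR-44-3p over miR-61-3p. The median size of the change was 0.41 over the 16, against 0.40 for miR-86-5p over miR-785-3p, and 8 of the 16 moved further. The groups of libraries did not overlap in 4 of the 16, in either direction. Over all tested miRNAs the groups did not overlap for 38.5% of single levels, in either direction. For ratios of miR-86-5p to the others the share was 26.1%, counting only those higher under cadmium. Such separation was thus common and is not particular to miRNAs that share a seed. The largest change was for miR-79-3p over miR-75-3p, whose log2 ratio went from 1.08 ± 0.08 to 2.15 ± 0.36. The smallest of the computed changes was for miR-46-3p over miR-47-3p, from 0.07 ± 0.14 to 0.11 ± 0.12. In control libraries the geometric mean ratio of the pair, 9.00, was the fifth highest of the 17, whose other values had a median of 2.92. The closest control ratio was that of miR-87-3p over miR-233-3p, at 9.17 in the controls and 12.6 under cadmium. No test was made across these groups, which were listed from knowledge of worm miRNAs.

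**Figure D5:**
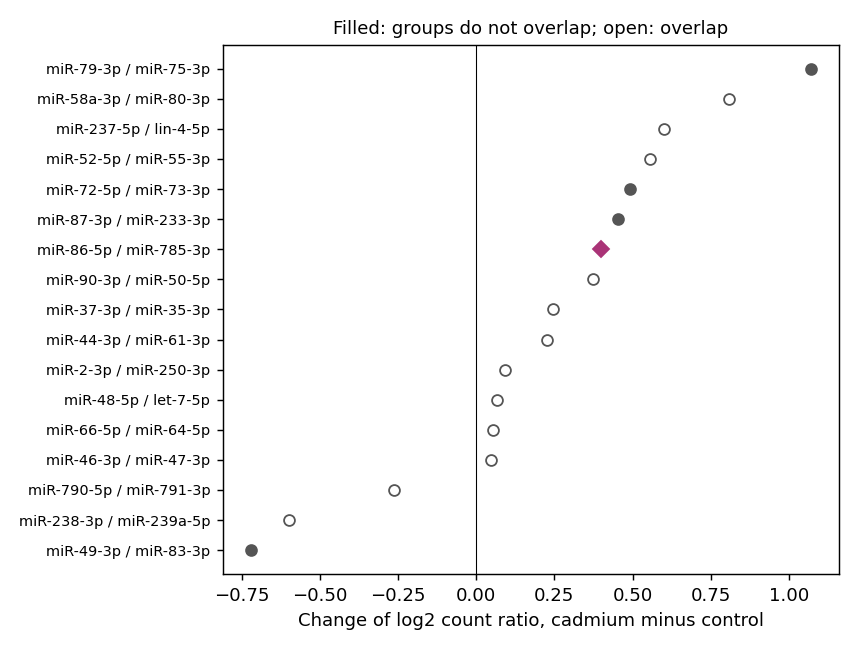
Change of the log2 ratio between the most abundant listed members of 17 groups of miRNAs sharing a seed, cadmium minus control. Symbols are filled where the 3 libraries of one condition all lie above those of the other. miR-86-5p over miR-785-3p (diamond, 0.40) lies between miR-90-3p over miR-50-5p (0.37) and miR-87-3p over miR-233-3p (0.45).

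miRNAs typical of different tissues were present, as the label of whole animals implies. Markers of muscle (miR-1-3p), neurons (miR-124-3p, lsy-6-3p, miR-791-3p), intestine (miR-60-3p), late larvae and adults (let-7-5p, lin-4-5p) and the embryo and germline (8 miR-35 family miRNAs) were all detected in all 6 libraries, with 0 at 0 counts. The 8 embryonic markers all fell by the test. Their summed share was 7.25% to 11.7% of counts in the controls and 1.80% to 2.63% under cadmium, and 0 of the other 7 markers passed. Over all 208 tested miRNAs 45 passed in either direction (21.6%). The lack of a call among 7 markers therefore does not show that their tissues were unaffected. miR-60-3p stood at 1733 to 2362 deposited CPM in the controls and at 1294 to 1699 CPM under cadmium. In TMM-scaled CPM its groups overlapped, at 1518, 2214 and 1985 in the controls and 1616, 1836 and 1491 under cadmium. Its log2 fold change was −0.21, with an adjusted p of 0.478 by edgeR. In whole worms fewer cells of a type and less RNA per cell cannot be told apart. The part of these markers in the ratio of the pair was not tested. With the miR-35 family left out of the table, the log2 fold changes were 0.19 for miR-86-5p and −0.23 for miR-785-3p.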

How the data were processed

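Small RNA libraries from 3 control and 3 cadmium samples were sequenced on an Illumina NextSeq 500, per the labels' protocols. The deposited files hold raw counts per mature miRNA for each library. The CPM values deposited by the authors equal each count over its library's listed total, which was checked by recomputing them. The submitters' processing notes name WBcel235, cutadapt 3.4 and Bowtie2 2.4.2 among other tools, without their roles. The miRNA annotation, strand setting and handling of reads matching several miRNAs are not described in the sources used here. In the counts, miR-44-3p and miR-45-3p were identical in every library, for example 259223 each in control replicate 3. Both enter the library totals and the tested miRNAs. The series-wide tables hold 12 more columns, left out since their headings cannot be tied to sample titles.

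Counts were analysed in R 4.3.3 with edgeR 4.0.16: filterByExpr, TMM scaling, quasi-likelihood F test (two-sided, no covariate, prior count 0.125), Benjamini-Hochberg adjustment over 208 miRNAs, threshold 0.05. Intervals of fold changes came from the same fit. Ratios used 0.5 added counts and exact permutation tests (scipy 1.17.1), with limma 3.58.1 over 207 ratios to miR-86-5p. Profile distances used log2(TMM-scaled CPM + 0.5). Without molecular identifiers, count intervals and limits cover counting error only. In simulated counts for this comparison with 40 of 208 miRNAs changed by 2 (log2), 96% of these were found by edgeR, and false calls made up 3.89% of all calls. The simulated counts had the same dispersion for every miRNA. Their changes were far larger than those fitted for miR-86-5p (0.18) and miR-785-3p (−0.23). The 96% therefore does not say how often changes of that size would be found. The alternatives were other scalings, no filter, DESeq2 1.42.0, a robust fit and limma on the deposited CPM. A replicate block, the miR-35 family left out and each library left out were the others.

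The members and lists were chosen with earlier results of these data known. The miRNAs named are the members, the other arms of their hairpins, their neighbours in abundance, the 3 with the closest profiles, the nearest hairpins, and the seed groups whose ratio changed most and least. A search for further miRNAs with the same seed was part of the naming rule and was not made, since sequences were not used here.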

Additional observations from a re-analysis of the deposited data

How the results depend on the processing

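The members stayed short of the threshold under every alternative run. For miR-785-3p the log2 fold change kept its sign in all 16, from −0.42 to −0.16, with adjusted p from 0.199 to 0.713. For miR-86-5p it was positive in 13 of 16 and slightly negative under total counts (−0.011) and by limma on the deposited CPM with 1 (−0.019) or 0.1 (−0.019) added before taking logs, where the median of all tested miRNAs was −0.16, −0.19 and −0.20 against 0.0039. The summed level likewise went from 0.14 to −0.053 with total-count CPM. With each library left out, miR-86-5p ran from 0.063 to 0.27, miR-785-3p from −0.37 to −0.16, the summed level from 0.044 to 0.22, the log2 ratio from 0.22 to 0.49, the share from −2.59 to −1.32 percentage points and the arm ratio of mir-86 from −0.35 to 0.39. The exact permutation p cannot go below 0.2 with 2 libraries against 3. miR-86-3p, at 0.21, went to −0.059 and −0.063 by limma with those 2 additions, and ran from −0.14 to 0.44 with each library left out. The ratio did not depend on the count added, nor, being taken within libraries, on scaling. For the sign changes the cause was not tested.

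Over all settings the number of miRNAs called ran from 17 with a replicate block to 60 by the DESeq2 Wald test. The main fit called 45. With 1 library left out, the number called ran from 22 without control replicate 3 to 52 without cadmium replicate 1. It was 27 without cadmium replicate 2, 29 without cadmium replicate 3 and 29 without control replicate 1. Replicate numbers are shared between the groups, but the deviations of libraries with the same number were not alike (correlations −0.044, −0.30 and −0.32). Between control and cadmium libraries with different numbers the correlations ran from −0.27 to 0.46. The highest was for control replicate 2 with cadmium replicate 3. With the replicate number as a block 17 miRNAs were called, miR-86-5p had a log2 fold change of 0.18, miR-785-3p −0.22, and the ratio differed by 0.40 (exact sign-flip p 0.25, the smallest 3 pairs allow). An arm ratio for mir-785 could not be had, because its 5p arm has 0 counts. Depth limits miR-86-3p, with 57 to 208 counts, and miR-785-5p.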
